A study of Homo sapiens with 9 samples.

Results

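BPTF binding sites that appeared inside genes after a short progestin treatment are described here as a set of 728 peaks. BPTF is the largest subunit of the nucleosome remodelling factor NURF. The peaks came from the list of 1848 BPTF peaks that the authors deposited as recruited by hormone. A second list holds 5546 peaks deposited as displaced, and the 2 lists of changed peaks hold 7394 together. A peak was included when it overlapped the span of a gene in the deposited H2A gene table and stayed clear of the 5 kb on either side of every gene start in that table. The peaks were thus chosen by the measured change of BPTF between the 2 times and by their position. That they were recruited is a property of the choice and not a result, and BPTF signal at single peaks was not analysed here, so the label could not be checked against it.

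T47D-MTVL cells are a luminal line from human breast cancer. They express progesterone receptor and carry a reporter gene under the mouse mammary tumour virus promoter. The cells were kept without serum and then given R5020, a synthetic progestin, at 10 nM. ChIP-seq libraries for BPTF, HP1γ and LSD1 were made after 30 min of hormone and from unstimulated cells (0 min), and those for the core histone H2A at 0, 30 and 60 min. All 9 samples share the line and the serum-free culture, and no antibody has a second library at any time. No difference below could therefore be set against a spread between cultures, and no test was made. Wilson 95% intervals cover the counting of peaks only.

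NURF slides nucleosomes with the ISWI ATPase SMARCA5 or SMARCA1, and BPTF brings it to chromatin through a PHD finger that binds histone H3 trimethylated on lysine 4 and a bromodomain that binds acetylated histone tails. Trimethylated lysine 4 is found mainly at the starts of active genes, whereas steroid receptors bind largely at distal elements within introns and between genes. The progesterone receptor recognises AGAACA and its reverse complement TGTTCT, as a pair separated by 3 bases or as a single hexamer. HP1γ reads methylated lysine 9 of histone H3, and LSD1 removes methyl groups from lysine 4.

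Sequences of 6 members show how the receptor hexamer occurred in them. All are from the plus strand of GRCh37, which has the coordinates of hg19, and run 5′ to 3′. In the first 2, capitals mark the stretch closest to a full pair of hexamers. The member in CNST (chr1:246780941-246781729), which encodes a connexin-recycling protein, differed from the full pair by T12C, and the member in DFNB31 (chr9:117224136-117224690), which encodes the hair cell scaffold whirlin, by A4G. Positions count from 1 at the 5′ end of the pair, and the base of the full pair comes first. These are the members closest to the full element.
CNST: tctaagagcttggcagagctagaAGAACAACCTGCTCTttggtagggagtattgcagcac
DFNB31: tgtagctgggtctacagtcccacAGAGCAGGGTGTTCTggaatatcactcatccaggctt

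The other 4 are the 300 bp around the peak centre, with single hexamers in capitals. ZBTB16, PRLR and STAT5A are the 3 of 6 hosts on the progestin response list whose members held a hexamer, those of PGR, NEDD9 and BCL6 having none, and DIP2C held the most hexamers of all members. The stretches run from chr11:114050038-114050337 for ZBTB16, chr5:35205801-35206100 for PRLR, chr17:40446454-40446753 for STAT5A and chr10:701238-701537 for DIP2C. ZBTB16 held 4 hexamers, PRLR 2, STAT5A 1 and DIP2C 5. In DIP2C every TGTTCT opens a near-identical repeat of the same stretch, so these copies are not separate occurrences.
ZBTB16: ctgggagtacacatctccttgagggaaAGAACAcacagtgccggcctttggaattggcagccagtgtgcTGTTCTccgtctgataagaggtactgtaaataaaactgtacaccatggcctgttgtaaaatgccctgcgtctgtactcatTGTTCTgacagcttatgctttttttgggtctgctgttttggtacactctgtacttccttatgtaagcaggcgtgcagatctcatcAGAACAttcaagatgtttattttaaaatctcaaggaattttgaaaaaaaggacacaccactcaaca
PRLR: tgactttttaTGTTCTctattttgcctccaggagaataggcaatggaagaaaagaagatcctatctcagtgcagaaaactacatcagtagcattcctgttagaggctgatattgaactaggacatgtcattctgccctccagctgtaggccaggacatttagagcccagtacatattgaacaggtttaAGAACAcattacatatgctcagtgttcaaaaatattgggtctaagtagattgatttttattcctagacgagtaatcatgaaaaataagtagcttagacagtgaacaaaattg
STAT5A: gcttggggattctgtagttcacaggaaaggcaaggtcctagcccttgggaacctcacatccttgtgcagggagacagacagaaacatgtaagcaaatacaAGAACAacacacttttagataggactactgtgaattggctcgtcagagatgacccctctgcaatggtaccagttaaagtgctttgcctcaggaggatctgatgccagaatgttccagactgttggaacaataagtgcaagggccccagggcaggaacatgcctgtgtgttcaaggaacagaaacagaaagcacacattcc
DIP2C: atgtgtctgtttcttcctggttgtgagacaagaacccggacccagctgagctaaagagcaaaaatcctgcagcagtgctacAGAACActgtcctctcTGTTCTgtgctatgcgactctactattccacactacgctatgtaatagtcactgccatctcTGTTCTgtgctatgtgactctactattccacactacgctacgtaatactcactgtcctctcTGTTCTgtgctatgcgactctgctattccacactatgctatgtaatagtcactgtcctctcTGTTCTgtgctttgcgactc

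Gene bodies held 39.4% of all recruited peaks (37.2% to 41.6%) and 39.96% of all displaced peaks, 2216 of 5546 (38.7% to 41.3%). The lists differed at gene starts, where 281 recruited peaks (15.2%, 13.6% to 16.9%) and 319 displaced peaks (5.75%, 5.17% to 6.40%) lay within 5 kb. The remaining 839 recruited peaks (45.4%) and 3011 displaced peaks (54.3%) lay between genes. The members were 308 to 1762 bp wide, with a median of 589 bp. The distance to the nearest gene start ran from 5056 to 746326 bp, with a median of 43787 bp, against a median of 63470 bp for displaced gene-body peaks.

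These distances run to the nearest start of any gene in the table, which need not be that of the host. Just inside the 5 kb limit lay members in DIP2C (5056 bp from the nearest gene start), DLG5 (5213 bp), which encodes a scaffold of cell junctions, the keratin gene KRT6A (5233 bp), PFDN2 (5235 bp), a subunit of the chaperone prefoldin, and PKIG (5303 bp), an inhibitor of protein kinase A. Just outside it were peaks at COX19 (4987 bp), ACAA1 (4929 bp), MDH2 (4890 bp), CD22 (4877 bp) and DPCR1 (4863 bp). The members farthest from a start lay in OPCML (746326 bp), a neuronal adhesion gene, in AUTS2 (744704 bp), a regulator of neuronal development, and in the scaffold gene MAGI2 (742564 bp). The widest peaks were in LOC399715 (1762 bp), C16orf74 (1529 bp), ANKRD11 (1328 bp), ARRDC1 (1321 bp) and the receptor gene NOTCH2 (1317 bp).

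Most members were intronic. By the peak centre, 633 of 728 (87.0%, 84.3% to 89.2%) lay in an intron, 28 (3.85%, 2.67% to 5.50%) in a coding exon and 47 (6.46%, 4.89% to 8.48%) in a noncoding exon or an untranslated region. The other 20 lay outside the model of their gene in the GENCODE 44 annotation that was used for exons, since the deposited table rests on the older GENCODE 18. Displaced gene-body peaks were at 90.5% intron, 2.66% coding exon and 4.92% noncoding exon. All tiles of 589 bp that cover the same gene bodies were at 94.1%, 2.27% and 3.64%. Every tile outside exons was counted as intron, whereas 2.75% of members and 1.94% of displaced gene-body peaks were set apart as outside the later model. The intron share of tiles is therefore not a like measure. Intron 1 of the longest transcript held 172 members (23.6%, 20.7% to 26.9%) and 19.0% of displaced gene-body peaks (17.5% to 20.7%).

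The choice by gene starts did not keep all members away from transcript starts, because the table has 1 start for each gene. Of the members, 107 (14.7%, 12.3% to 17.5%) lay within 1 kb of some annotated transcript start, including those of noncoding transcripts. The share was 10.0% for displaced gene-body peaks (8.84% to 11.3%) and 9.83% for gene-body tiles. ACTB, the gene of β-actin, is the plainest case. The table gives it a span of 33613 bp. The member at chr7:5569059-5570122 thus counted as 15676 bp from the nearest gene start, although it covers an annotated transcript start of ACTB. Within 5 kb of some annotated transcript start lay 281 members (38.6%, 35.1% to 42.2%), against 29.3% of displaced gene-body peaks (27.4% to 31.2%). The rule applied with these starts in place of the gene starts of the table selected 450 recruited peaks.

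Along the host gene, 5 equal stretches from start to end held 14.8%, 20.6%, 21.2%, 22.0% and 21.4% of the members. The first stretch holds the excluded 5 kb, which leaves less room there. Displaced gene-body peaks had 16.6%, 19.6%, 21.4%, 19.99% and 22.4%.

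The 728 members lay in 658 host genes, of which 586 held 1 member, 56 held 2, 10 held 3, 5 held 4 and 1 held 5. The hosts were long, with a median of 125048 bp over the longest host of each member, against 21870 bp over the 20318 genes of the table. Longer genes offer more room for a peak, so a gene's presence among the hosts depends on its length. The 5 members in 1 gene were in ANKRD11, a chromatin regulator that binds histone deacetylases, and 2 of them were 259 bp apart, the closest pair of all. KCNMA1, a calcium-gated potassium channel gene, GRIK4, a kainate receptor gene, RALGPS1, an exchange factor for the GTPase Ral, EIF2B5 and ZNF704 held 4 each. The span given for EIF2B5, a translation initiation factor, is 549383 bp and covers neighbouring genes, so its members may belong to those.

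Of the hosts, 223 (33.9%) also held a displaced gene-body peak, and these were 15.2% of the 1467 hosts of displaced peaks. Over all 20318 genes of the table, which are mostly shorter than the hosts, 7.22% held a displaced gene-body peak and 3.24% held a member. ANKRD11, MYOF, DNMBP, NAV2 and DIP2C held at least 3 members and no displaced gene-body peak. LPP, which encodes a protein of focal adhesions, held 3 members and 8 displaced peaks, and NLGN1, a synaptic adhesion gene, held 1 member and 23 displaced peaks. The member nearest to a displaced peak lay 292 bp from it, in MCCC1, a mitochondrial carboxylase gene, so that no member overlapped a displaced peak. Another recruited peak lay within 10 kb of 35 members (4.81%, 3.48% to 6.61%) and of 1.56% of gene-body tiles. A displaced peak lay within 10 kb of 52 members (7.14%, 5.49% to 9.25%) and of 4.41% of tiles.

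Members were spread unevenly over the chromosomes. Chromosome 3 held 93 (12.8%), or 1.21 per Mb of gene body, and chromosome 17 held 42, or 1.27 per Mb. Chromosome 2 held 10, or 0.120 per Mb, chromosome 18 held 1 and the X chromosome held 4. Displaced gene-body peaks were dense on chromosome 3 too, with 4.32 per Mb, and sparse on chromosome 2, with 0.457 per Mb. DNA copy number of the line was not analysed here, and its part in these densities was not tested.

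**Figure D1:**
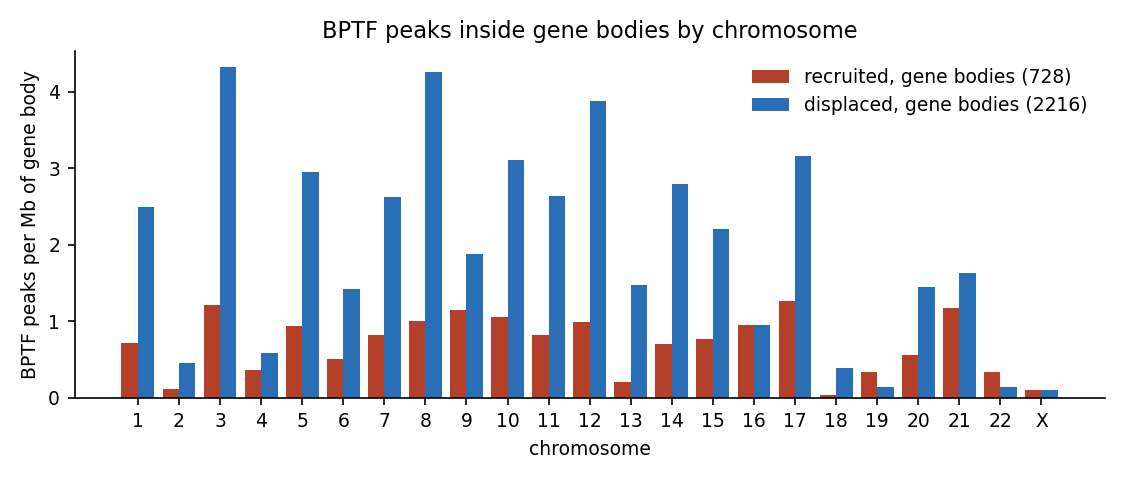
BPTF peaks per Mb of gene body on each chromosome, with recruited peaks (728) left of displaced peaks (2216). Recruited density ran up to 1.27 per Mb on chromosome 17, and both lists were sparse on chromosomes 2, 18 and X.

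Members were richer in GC than displaced gene-body peaks. Over the 300 bp around the centre, members had a mean GC content of 45.3% ± 8.02 (SD over 728 peaks) and a median of 43.7%, against 37.5% ± 6.30 (SD over 2216 peaks) and a median of 36.0% for displaced gene-body peaks. All gene-body tiles of 300 bp had a median of 40.3%, between the lists. The median was higher in recruited than in displaced gene-body peaks on 23 of 23 chromosomes. The chromosomes share the same BPTF libraries, so they are not separate cases. Some held few peaks, such as chromosome 18 with 1 member and 9 displaced gene-body peaks. Of the members, 24.5% had at least 50% GC, against 5.19% of displaced gene-body peaks and 16.9% of tiles. Recruited peaks between genes, with a mean of 45.2%, were close to the members, and those near starts had 54.6%.

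**Figure D2:**
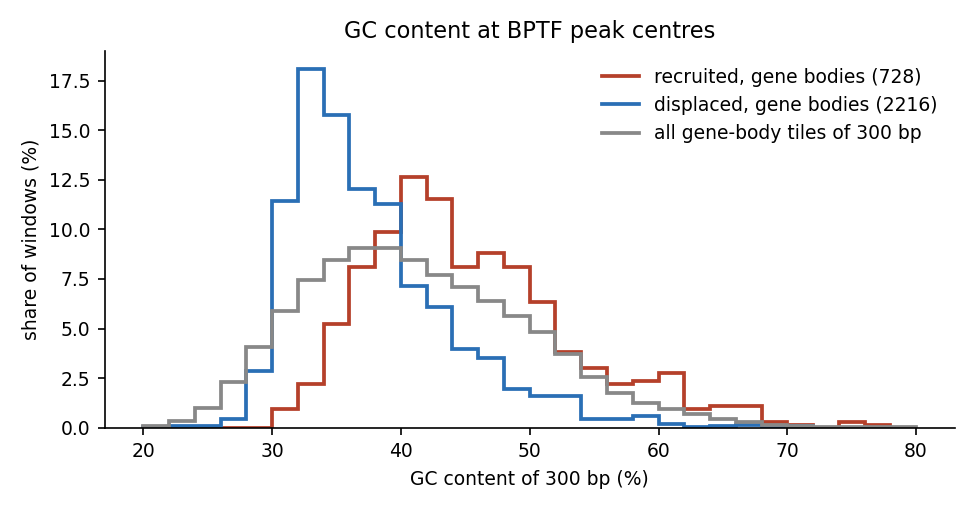
GC content (%) of the 300 bp around peak centres, as the share of windows (%) in steps of 2% GC, for recruited gene-body peaks, displaced gene-body peaks and all gene-body tiles. The recruited peaks (median 43.7%) sit to the right of the tiles (40.3%) and the displaced peaks (36.0%) to their left.

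The difference reached beyond the peak itself. In 100 bp steps around the centre, the mean GC content of members was 45.4% at the centre and 43.7% in the outermost step upstream, about 1 kb away, whereas displaced peaks had 37.5% at the centre and 38.6% in that step. The GC content of peaks called for the other proteins differed between times by list. The median of HP1γ gene-body peaks was 38.7% at 30 min and 42.7% at 0 min, and that of LSD1 gene-body peaks 38.3% at 30 min and 37.7% at 0 min, so the lists moved in opposite directions. With 1 BPTF library at each time, a difference between the libraries and a difference between the times cannot be told apart.

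A small group of members was rich in CpG, with at least 50% GC and an observed over expected CpG ratio of at least 0.6 over the whole peak. There were 14 such members (1.92%, 1.15% to 3.202%), against 4 displaced gene-body peaks (0.181%, 0.0702% to 0.463%) and 0.547% of tiles. Among recruited peaks near starts the share was 32.4%. Recruited peaks between genes, at 3.70% (2.62% to 5.20%), also had a higher share than the members. The 14 members included ACTB with 77.7% GC in the central 300 bp, MMRN2 with 75.3%, CKAP4 with 74.0% and GPRC5C with 68.7%. The members in POLR2M, MEF2A, GPRC5C, FXR1 and ACTB covered an annotated transcript start. The one in MMRN2, an endothelial extracellular matrix gene, lay in a coding exon 1470 bp from the nearest, and those in ZNF831 and PBX3 lay 58601 and 23731 bp away. The stretch in MMRN2 (chr10:88702423-88702722, plus strand of GRCh37), with 33 CpG in 300 bp in capitals, shows the composition of the richest of these members beyond 1 kb of an annotated transcript start.
MMRN2: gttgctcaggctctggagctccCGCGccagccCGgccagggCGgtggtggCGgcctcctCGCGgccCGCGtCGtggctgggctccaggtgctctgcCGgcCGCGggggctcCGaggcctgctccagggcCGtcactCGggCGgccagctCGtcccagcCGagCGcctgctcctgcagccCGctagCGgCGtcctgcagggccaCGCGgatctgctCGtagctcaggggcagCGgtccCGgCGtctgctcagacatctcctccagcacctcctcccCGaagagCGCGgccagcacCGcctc

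The receptor hexamer AGAACA, searched on both strands in the central 300 bp, was found in 221 members (30.4%, 27.1% to 33.8%). It was found in 25.8% of displaced gene-body peaks (24.0% to 27.7%) and in 22.8% of all gene-body tiles of that length. Recruited peaks between genes, at 29.6%, were close to the members, and recruited peaks near starts had 15.3%. Since the hexamer is poor in GC, the shares were also taken at similar GC content. At 40% to 50% GC the hexamer was in 126 of 358 members (35.2%, 30.4% to 40.3%), against 25.1% of displaced gene-body peaks (21.5% to 29.1%) and 22.7% of tiles. Below 40% the shares were 29.7% (23.7% to 36.5%), 26.6% and 25.6%, and at 50% and above 21.3% (15.97% to 27.9%), 17.4% and 15.1%, in the same order. The excess over tiles was thus largest at middle GC, and at low GC the interval of the members held both other shares.

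The hexamer was also more frequent at the centre of the members than in bins beyond 550 bp. The central 100 bp held it in 12.4% of members (10.2% to 14.95%), and the 10 outer bins, which start 550 bp from the centre on either side, held it in 6.18% to 9.62%, with a mean of 7.65%, a ratio of 1.62. The bins in between ran from 6.87% to 12.2%, with 12.2% in the bin next to the centre on one side and 10.3% on the other, and 10.7% in the bin from 450 to 350 bp upstream. For displaced gene-body peaks the centre had 10.2% (9.05% to 11.6%) and the flanks a mean of 9.08%, a ratio of 1.13. Other recruited peaks lay between these ratios. Those between genes had 10.6% (8.70% to 12.9%) at the centre and 8.09% in the flanks, a ratio of 1.31. Those near starts had 7.47% (4.94% to 11.2%) and 5.69%, also a ratio of 1.31. Of the members, 507 had no hexamer in 300 bp, 174 had 1, 39 had 2, 5 had 3, 2 had 4 and 1 had 5. The 2 with 4 were in ZBTB16 and DAAM1, an actin regulator. The 5 of DIP2C are in the sequence printed above, where the TGTTCT copies lie in a repeat. TP63, the p53 family gene of basal epithelium, had 3. A match is a run of letters and not a bound site.

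**Figure D3:**
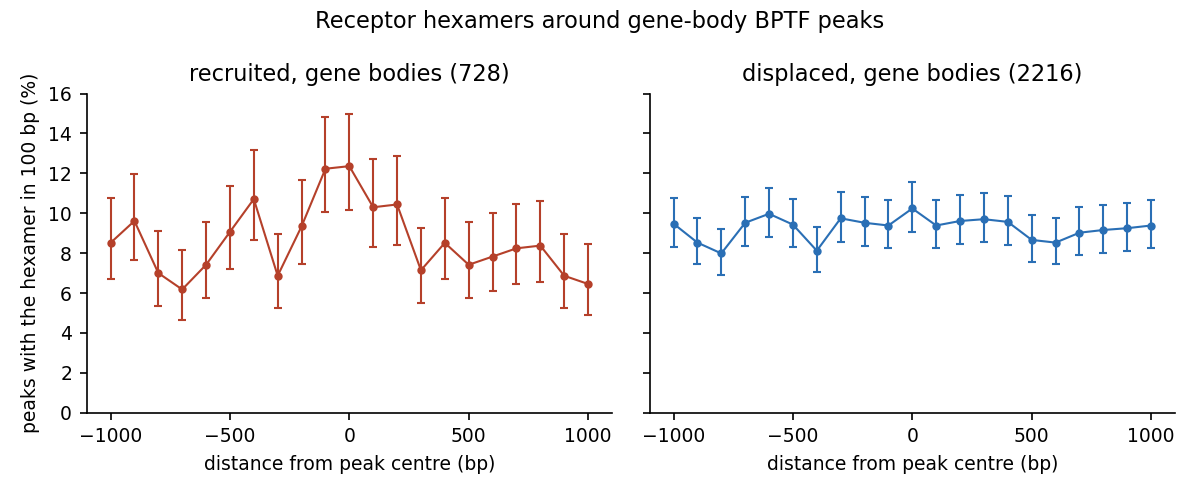
Share of gene-body BPTF peaks with AGAACA on either strand in bins of 100 bp, by distance from the peak centre (bp), for recruited peaks on the left and displaced peaks on the right, with Wilson 95% intervals. The recruited peaks reach 12.4% at the centre against a mean of 7.65% in the outer bins, and the displaced peaks 10.2% against 9.08%.

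The full pair of hexamers was not found in any member (0 of 728, which allows a share of up to 0.412%), and in 201 of 3362970 tiles (0.00598%). At a share as low as that of tiles, 0 in 728 peaks would be usual, so its absence does not set the members apart. With up to 1 mismatch in its 12 fixed bases there were 2 members, CNST and DFNB31 (0.275%, 0.0754% to 0.996%), against 0.0903% of displaced gene-body peaks and 0.155% of tiles. With up to 2 mismatches there were 33 (4.53%, 3.25% to 6.30%), against 3.07% of displaced gene-body peaks (2.43% to 3.87%) and 2.20% of tiles. Of the 221 members with a hexamer, 174 had a single copy.

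The ETS core CCGGAAG, searched on both strands, was in 15 members (2.06%, 1.25% to 3.37%), against 0.632% of displaced gene-body peaks (0.377% to 1.06%) and 0.697% of tiles. Recruited peaks near starts had 2.49% (1.21% to 5.05%) and those between genes 0.596% (0.255% to 1.39%). At 50% GC and above the core was in 13 of 178 members (7.30%, 4.32% to 12.1%), against 1.74% of displaced gene-body peaks (0.478% to 6.12%) and 1.93% of tiles. In that range recruited peaks near starts had 2.92% (1.26% to 6.66%) and those between genes 2.04% (0.796% to 5.13%). ETS factors often bind at promoters. Farther than 1 kb from any annotated transcript start, a limit chosen after seeing the data, 11 of 621 members (1.77%) had the core. That stands beside 0.697% of all tiles, taken at any distance. Of the 15 members with the core, 4, those in KCNIP2, POLR2M, GPX3 and ACTB, covered an annotated transcript start. The others included NFIA, PREX1, ZNF831, LPCAT1 and DFNB31.

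Hosts on the progestin response list were 6 of 50 (12%), compared with 3.24% of all genes in the table and with 4% of the list for displaced gene-body peaks. The list was drawn up from textbook knowledge with earlier results of these data known. Its genes had a median length of 25030 bp, near that of all genes. PGR encodes the progesterone receptor, and its member lay in intron 3 (chr11:100961264-100962002) with 31.7% GC and no hexamer. PRLR encodes the prolactin receptor, and its member lay in intron 1 (chr5:35205475-35206425). STAT5A, which transmits prolactin signals, had its member in intron 5 (chr17:40446336-40446871), and ZBTB16, a zinc finger repressor induced by glucocorticoids and progestins in several tissues, in intron 3 (chr11:114049888-114050486). The member in NEDD9, an adhesion scaffold gene, lay in intron 3. The member in BCL6, a transcriptional repressor, lay in a coding exon (chr3:187449232-187449879) and also within LOC100131635, a longer gene of the table.

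Luminal breast markers held 4 hosts of 28, PGR, PRLR, the estrogen receptor gene ESR1 and the GATA-type repressor gene TRPS1, and displaced peaks had 5 hosts there. Estrogen response genes held 2 of 22, ESR1 and PGR, and displaced peaks had 0. The ESR1 member lay in intron 6 (chr6:152323270-152323860), 194584 bp from the nearest gene start. Enzymes of poly-ADP-ribose and NAD metabolism held 5 of 30, against 3 of 30 for displaced peaks. PARP1, the main polymerase, had its member over a noncoding exon 314 bp from an annotated transcript start (chr1:226562814-226563454). The others were PARP15, the tankyrase gene TNKS, and NMNAT2 and NMNAT3, whose products make NAD.

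Chromatin remodellers held 3 of 62, against 5 of 62 for displaced peaks. Among these hosts, EHMT1, a histone H3 lysine 9 methyltransferase, held 2 members, and HDAC9, a histone deacetylase, held 2. Receptors and kinases of growth factor signalling held 1 of 68, the ephrin receptor gene EPHB1, whose member lay outside the later gene model, against 11 of 68 for displaced peaks. Cell adhesion and synapse genes, which are long (median 419523 bp), held 12 of 56, against 27 of 56 for displaced peaks. Among the 12 were CDH13, DSCAM, LRP1B, NLGN1 and PCDH15. Cell cycle G1/S genes, with a median length of 15159 bp, held 0 of 28, against 1 of 28 for displaced peaks. Beside the 3.24% and 7.22% of all genes that were hosts of recruited and displaced gene-body peaks, the shares of hosts were 14.3% and 17.9% of luminal markers, 9.09% and 0% of estrogen response genes, and 16.7% and 10% of poly-ADP-ribose and NAD enzymes. They were 4.84% and 8.06% of chromatin remodellers, near those of all genes, 1.47% and 16.2% of growth factor receptors and kinases, and 21.4% and 48.2% of adhesion and synapse genes. The counts are small and none of these differences was tested.

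Few members overlapped an HP1γ or LSD1 peak. At 30 min, 18 members (2.47%, 1.57% to 3.87%) overlapped an HP1γ peak by at least 1 bp, and at 0 min 33 did (4.53%, 3.25% to 6.30%). Displaced gene-body peaks had 1.99% (1.48% to 2.66%) at 30 min and 4.24% (3.48% to 5.16%) at 0 min. For LSD1 the members had 13 (1.79%, 1.05% to 3.03%) at 30 min and 27 (3.71%, 2.56% to 5.34%) at 0 min, and displaced gene-body peaks had 2.35% (1.79% to 3.06%) at 30 min and 5.73% (4.84% to 6.78%) at 0 min. Both lists exceeded gene-body tiles of 589 bp, which overlapped HP1γ in 0.894% at 30 min and 1.25% at 0 min and LSD1 in 0.774% at 30 min and 1.57% at 0 min. The 30 min lists are shorter (23836 HP1γ and 20495 LSD1 peaks) than those of 0 min (31845 and 34990), so the lower shares at 30 min do not show a change at the members.

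**Figure D4:**
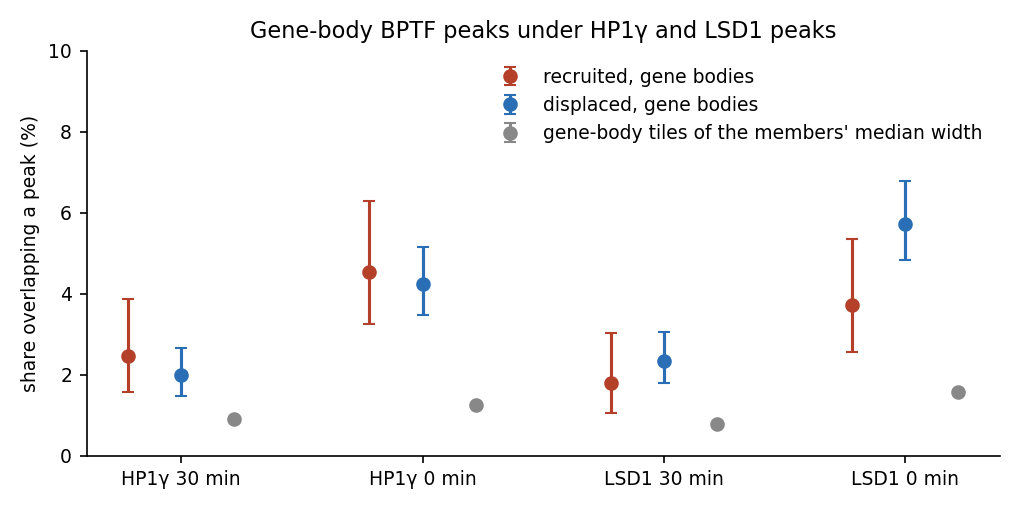
Share (%) of recruited gene-body peaks, displaced gene-body peaks and gene-body tiles of 589 bp that overlap an HP1γ or LSD1 peak of each time, with Wilson 95% intervals. Recruited and displaced peaks lie above the tiles in each list, and for LSD1 at 0 min recruited peaks are at 3.71% and displaced peaks at 5.73%.

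Chromosome 3 held 7 of the 18 members that overlapped HP1γ at 30 min, 7 of the 33 at 0 min, 3 of the 13 that overlapped LSD1 at 30 min and 12 of the 27 at 0 min, while holding 12.8% of all members. LSD1 peaks of 0 min overlapped 12 of its 93 members (12.9%, 7.54% to 21.2%), 12.7% of its displaced gene-body peaks and 4.02% of its tiles. Outside chromosome 3 the shares for LSD1 at 0 min were 2.36% of members (1.44% to 3.86%), 4.51% of displaced gene-body peaks (3.66% to 5.55%) and 1.37% of tiles.

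In all, 81 members (11.1%, 9.04% to 13.6%) overlapped a peak of at least 1 of the 4 lists, 24 of them in 30 min lists only and 50 in 0 min lists only. Displaced gene-body peaks overlapped at least 1 list in 12.5% (11.1% to 13.9%). Overlap in 30 min lists only was found in 3.297% of members and 3.11% of displaced gene-body peaks. Overlap in 0 min lists only was found in 6.87% and 8.30%, in the same order. The 10 members in 2 lists lay in SOX13, KCNK2, C12orf79, ITGA9, MECOM, USP13, TP63, FGF12, HRASLS and ASAP1. These 10 were 1.37% of members, and 1.67% of displaced gene-body peaks were in 2 or more lists. HP1γ peaks of both times covered 3 members, in SOX13, KCNK2 and MECOM, and LSD1 peaks of both times covered 0 of 728, which allows a share of up to 0.412%. For displaced gene-body peaks the shares were 0.406% for HP1γ, beside 0.412% of members, and 0.271% for LSD1. The lists were thus close in these shares. The score that the authors deposited with each HP1γ or LSD1 peak starts at about 30, and its definition was not given. At 30 min the highest HP1γ score at a member was 57.0, in LIMA1, an actin-binding protein gene, followed by 45.7 in EHMT1. At 0 min it was 98.7, in FNDC3B. The highest LSD1 score was 62.7 at 30 min, in PPFIA2, and 75.7 at 0 min, in IL1RAP, a subunit of interleukin receptors.

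Histone H2A was measured over whole genes and not at the peaks, so it describes the hosts only. Values are RPKM as deposited, compared between times within a gene on the scale of log2(RPKM + 0.05). Of the 658 hosts, 656 passed a mean of 0.1 RPKM. Between 30 and 0 min, 0 of them were higher and 0 lower past 0.5 on the log2 scale, beside 0.345% of all 19709 genes higher and 1.99% lower. Between 60 and 0 min the hosts again had 0 and 0, beside 0.249% and 0.639%, and between 60 and 30 min 0 and 0, beside 0.756% and 0.294%. The hosts are long and hold many reads, and their median counting standard error at 30 min was 0.02. Of the 13790 tested genes of at least 10 kb, 12 were higher and 18 lower past 0.5 between 30 and 0 min.

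The median log2 change of the hosts was -0.07 between 30 and 0 min, with 418 of 656 (63.7%) below 0, against -0.14 and 71.3% for all genes tested and -0.09 and 65.3% for genes of at least 10 kb. Centred on the median of all genes, 35.5% of the hosts were below 0, so the balance of directions depends on the scaling. Centring also put 11 of 656 hosts higher and 0 lower past 0.5 between 30 and 0 min, beside 1.49% of all genes higher and 0.538% lower. Past 0.3 without centring, 23 of 656 hosts were higher and 44 of 656 lower between 30 and 0 min, beside 2.78% and 18.5% of all genes. All genes are mostly shorter than the hosts, and genes of at least 10 kb were not counted at this limit. Between 60 and 0 min 0 and 0 passed 0.3, beside 0.868% and 3.81%, and between 60 and 30 min 1 and 4 did, beside 4.39% and 1.22%. The medians were -0.005 between 60 and 0 min and 0.07 between 60 and 30 min, and the comparisons with 0 min share that library.

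The change followed the GC content of the gene, in hosts as in all genes. In hosts below 38% GC the median at 30 min was 0.19, against 0.21 in all genes of that range, and in hosts of at least 46% GC it was -0.26, against -0.27. Off the GC trend, the median of the hosts was -0.01 and 63.0% were below 0. That share was 57.8% for hosts of displaced peaks and 52.5% for all genes.

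**Figure D5:**
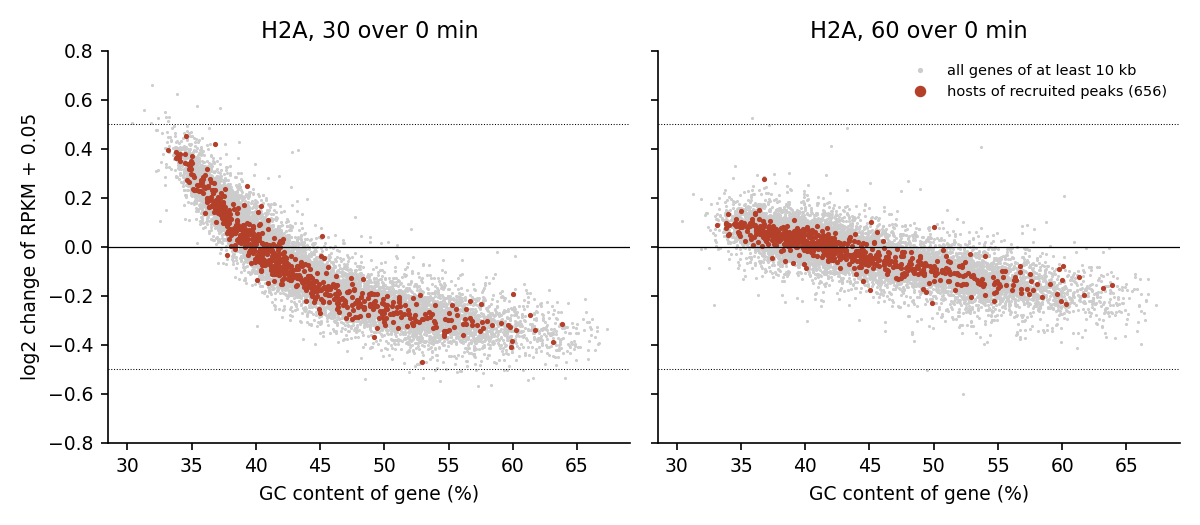
H2A log2 change of RPKM + 0.05 against the GC content (%) of the gene, for 30 over 0 min and 60 over 0 min, with hosts of recruited gene-body peaks in red and all tested genes of at least 10 kb in grey. Dotted lines mark 0.5 either way. The hosts lie within the band of all genes, from a median of 0.19 below 38% GC to -0.26 at 46% and above at 30 min.

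Hosts of the hormone response lists had these H2A levels. STAT5A had 8.05 RPKM at 0 min, 6.24 at 30 min and 7.40 at 60 min, a log2 change of -0.37 at 30 min with a counting standard error of 0.05. Off the GC trend it was -0.07. ZBTB16 had 4.90 RPKM at 0 min, 3.99 at 30 min and 4.48 at 60 min, a log2 change of -0.29 at 30 min, or -0.09 off the GC trend. PGR had 3.15 RPKM at 0 min, 3.41 at 30 min and 3.32 at 60 min, and ESR1 had 4.11, 4.17 and 4.26. BCL6 had 9.65 RPKM at 0 min, 8.55 at 30 min and 9.51 at 60 min, and PRLR had 9.21, 8.62 and 9.19. NEDD9 had 7.25 RPKM at 0 min, 6.49 at 30 min and 7.08 at 60 min. In ZBTB16, STAT5A, BCL6, PRLR and NEDD9 the level was lowest at 30 min and in PGR it was highest then, whereas in ESR1 it was highest at 60 min. A low level at 30 min was common over all genes tested. Of those, 71.3% had a change below 0 for 30 over 0 min, and only 28.3% for 60 over 30 min. Without replicates, none of the differences in these hosts could be set against a spread.

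The lowest change between 30 and 0 min among the hosts was -0.47, in CDK11B, a cyclin-dependent kinase gene with a near-identical copy, CDK11A, so its reads are uncertain. RELT, a receptor of the tumour necrosis factor family, had -0.41 and the transcriptional coregulator gene SBNO2 had -0.39, at 59.9% and 63.2% GC. The highest was 0.45, in MED30, a subunit of Mediator, at 34.6% GC, followed by 0.42 in PTPN20B, which had 0.145 RPKM at 0 min, 0.211 at 30 min and 0.186 at 60 min and a counting standard error of 0.24. At 60 min the lowest was -0.23, in the collagen gene COL18A1, and the highest 0.28, in PTPN20B, another gene with near-identical copies.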

How the data were processed

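Sample titles gave the antibody and time of each T47D-MTVL ChIP-seq library, 1 for each combination. Bowtie 1.0.0, HOMER 4.7.2 and build hg19 (GRCh37) are named in the submitters' processing notes. The authors deposited BPTF peaks as positions, and how they were called, or a change defined, is not given in the sources used here. HP1γ and LSD1 peaks carry a deposited score of unstated definition. Per the file headers, the H2A table holds RPKM over GENCODE 18 genes on both strands, counted with HOMER. Steps of 1 read in genes with 1 annotated transcript gave about 140.3, 168.0 and 132.5 M reads at 0, 30 and 60 min. Of 41 low values in each library, 90.2%, 87.8% and 90.2% came out whole within 0.03 reads. The depth of the other libraries is unknown, and no input library was analysed here. Whether peak starts count from 0 or 1 is not stated, so peaks are printed as deposited.

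Gene-body tiles cover every gene span outside 5 kb of gene starts. Counting standard errors divide reads by the number of annotated transcripts. The GC trend was a smooth fit over all genes tested. Shares have Wilson 95% intervals. A count of 0 allows 3 counts. Members and gene lists were chosen with earlier results of these data known. Genes are named where they held 2 or more members, a displaced peak or a receptor element, stood on a list, had extreme H2A changes, high-scored overlaps, or extreme widths or distances, and CpG-rich and ETS core members were named after their values were seen. Of the hosts on the lists, 1 is not reported here. Python 3.11.15, pandas 2.3.3, statsmodels 0.14.6 and pysam 0.24.0 were used, and the scripts were tested on simulated data.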

Additional observations from a re-analysis of the deposited data

How the results depend on the processing

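No paired analysis was possible because each antibody and time has 1 library, and no library could be left out. Of 72 alternative values, 44 stayed within their limits and 28 moved. The rule with every annotated transcript start selected 450 recruited peaks. Counting any exon overlap gave 20.3% exonic. For HP1γ at 30 and 0 min and LSD1 at 30 and 0 min, in that order, a score of at least 50 gave overlaps of 0.137%, 0.962%, 0.275% and 0.687%. An overlap of at least 50% of the BPTF peak gave 1.10%, 2.20%, 0.824% and 2.20%, and a distance within 1 kb gave 4.81%, 9.62%, 4.12% and 8.93%. Without chromosome 3, an alternative chosen after seeing the data, LSD1 at 0 min came to 2.36%. Centred on all genes, 35.5% of hosts were below 0 in H2A for 30 over 0 min, 38.7% for 60 over 0 min and 56.9% for 60 over 30 min, and 11 were higher past 0.5 for 30 over 0 min, beside 1.49% of all genes. With the GC trend off, 39.2% were below 0 for 60 over 30 min. Past 0.3, 23 of 656 hosts were higher and 44 of 656 lower for 30 over 0 min, beside 2.78% and 18.5% of all genes, and 1 higher and 4 lower for 60 over 30 min, beside 4.39% and 1.22%. In 600 bp and in the whole peak, the receptor hexamer was in 47.1% and 47.9% of members, against 40.4% and 39.8% of tiles of like length. The ETS core was in 3.57% and 4.12%, against 1.39% and 1.37% of such tiles. The unknown depth of all libraries but those of H2A limits what absent peaks show.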

Other observations

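The other sequence cores searched in the central 300 bp of the members had these shares. The core of FOXA pioneer factors, TGTTTAC, was in 4.95% of members (3.59% to 6.77%), 6.995% of displaced gene-body peaks (6.01% to 8.13%) and 4.68% of tiles. The AP-1 element TGANTCA was in 9.20% of members (7.31% to 11.5%), 9.75% of displaced gene-body peaks and 9.06% of tiles. The GATA core AGATAA was in 17.2% of members (14.6% to 20.1%), 26.1% of displaced gene-body peaks (24.3% to 28.0%) and 20.7% of tiles, and CCAAT in 32.8% of members (29.5% to 36.3%), 43.2% of displaced gene-body peaks (41.2% to 45.3%) and 36.4% of tiles. The E-box CACGTG was in 3.85% of members (2.67% to 5.50%), 1.76% of displaced gene-body peaks (1.29% to 2.40%) and 2.85% of tiles. The estrogen receptor element was in 1 member (0.137%, 0.0243% to 0.774%), 0 of 2216 displaced gene-body peaks and 0.0226% of tiles, and the CTCF core in 0 of 728 members, 0 of 2216 displaced gene-body peaks and 0.0577% of tiles. A count of 0 allows up to 0.412% of members and 0.135% of displaced gene-body peaks. All were searched on both strands, and GC content moves with these shares.

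The balance of recruited to displaced gene-body peaks also differed between chromosomes. Over all chromosomes there were 0.329 members for each displaced gene-body peak. Chromosome 22 had 5 members and 2 displaced gene-body peaks, chromosome 19 had 7 and 3, chromosome 16 had 27 and 27, and the X chromosome had 4 and 4. The next highest were chromosome 21 with 13 and 18, chromosome 4 with 21 and 34 and chromosome 9 with 45 and 74. Median GC content of gene-body tiles was 48.0%, 49.3% and 45.3% on chromosomes 22, 19 and 16, 39.0% on X and 37.7% on chromosome 4. Chromosomes 17 and 20, at 45.7% and 44.7%, had 0.4 and 0.387 members for each displaced gene-body peak. The counts on chromosomes 22, 19 and X are small, and a part of GC content in the balance was not tested.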
